A study of Mus musculus with 19 samples.

Results

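The lysosomal gene set described here holds 36 genes: 10 cysteine proteases, 3 other proteases, 6 glycosidases, 4 enzymes or carriers of lipids and sterols, 2 cofactors, 3 membrane proteins, 2 regulators and 6 subunits of the proton pump. The genes were listed by name, and all 36 were found among the 35498 genes of the files and passed the low-count filter that kept 13594 genes for testing. From general knowledge of where they are expressed, and with earlier results of these data known, 4 were taken as macrophage-type (Cd68, Ctss, Ctsk, Atp6v0d2), 4 as rich in macrophages but widely expressed (Ctsc, Ctsz, Lgmn, Grn) and 28 as ubiquitous.

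RNA was sequenced in bulk from livers of male mice whose genotype label is C57Bl/J6 and whose labelled age is 24 weeks, in 19 libraries. The groups were WSD+beta-Glucan (n = 4), WSD (n = 5), CTRL+beta-Glucan (n = 5) and CTRL (n = 5); WSD and CTRL are diet labels that are not spelled out, and by its title the series is about fatty liver disease and feeding of beta-glucan, a fibre of oats. No transgene or induced deletion is named for any group. Nothing says that each library is a separate mouse, so each p-value reflects how much these samples vary, and that variation may be technical.

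Lysosomes are acid compartments in which hydrolases break down proteins, glycans and lipids taken up by the cell or delivered by autophagy. A proton pump, the V-type ATPase, acidifies them: its V1 sector hydrolyses ATP in the cytosol and its V0 sector carries protons across the membrane. Many lysosomal genes carry a CACGTG-type element bound by TFEB and related factors. Hepatocytes keep a large lysosomal compartment for autophagy and for receptor-mediated uptake, while macrophages, which take up particles and lipoproteins, additionally express proteases and membrane proteins such as cathepsin S and CD68.

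Promoter windows from RefSeq (build GRCm38.p6, 250 bases before to 50 after a transcript start) were found for 30 members, in 35 windows. The letters CACGTG lay in a window of 11 of these 30 (36.7%), against 8.09% of 27025 genes with a window. The longer form TCACGTGA lay in 5 of the 30 (16.7%), against 1.12% of all genes, and the palindrome of the CLEAR element in none of the 30, against 0.370% of all genes. Each of the 3 motifs reads the same on both strands, and the longer ones contain the shorter. The 5 members with TCACGTGA encode a carboxypeptidase, an aspartic protease, an ion channel and a pair of pump subunits, and their stretches are shown with the match in capitals because they carry the element for which lysosomal genes are known.
Ctsa, chr2:164833734-164833793, plus strand: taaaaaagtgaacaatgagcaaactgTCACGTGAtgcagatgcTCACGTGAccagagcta
Ctsd, chr7:142387893-142387952, minus strand: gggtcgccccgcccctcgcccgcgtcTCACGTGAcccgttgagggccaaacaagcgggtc
Mcoln1, chr8:3500447-3500506, plus strand: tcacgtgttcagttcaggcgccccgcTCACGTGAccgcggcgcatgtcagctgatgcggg
Atp6v0d1, chr8:105566035-105566094, minus strand: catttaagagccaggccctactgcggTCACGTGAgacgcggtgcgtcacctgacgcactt
Atp6v1a, chr16:44139358-44139417, minus strand: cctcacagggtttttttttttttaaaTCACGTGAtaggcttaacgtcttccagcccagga

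Of the macrophage-type members, Cd68, Ctss and Ctsk had a window and none of these held CACGTG. All 3 held GAGGAA or its reverse complement TTCCTC, the core letters bound by ETS factors such as PU.1 of macrophages. This motif was looked for after the values had been seen, and it was as common elsewhere: 11 of the 30 members (36.7%) and 31.3% of all genes had it. The windows of Cd68 and Ctss are shown up to 30 bases after the start, with the match in capitals, as those of the macrophage-type members with the highest levels.
Cd68, chr11:69666141-69666420, minus strand: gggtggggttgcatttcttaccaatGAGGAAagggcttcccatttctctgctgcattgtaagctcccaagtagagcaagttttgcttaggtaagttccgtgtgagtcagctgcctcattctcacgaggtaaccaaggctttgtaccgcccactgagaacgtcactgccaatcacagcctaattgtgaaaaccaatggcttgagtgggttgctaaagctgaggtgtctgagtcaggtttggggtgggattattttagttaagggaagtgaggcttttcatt
Ctss, chr3:95526536-95526815, plus strand: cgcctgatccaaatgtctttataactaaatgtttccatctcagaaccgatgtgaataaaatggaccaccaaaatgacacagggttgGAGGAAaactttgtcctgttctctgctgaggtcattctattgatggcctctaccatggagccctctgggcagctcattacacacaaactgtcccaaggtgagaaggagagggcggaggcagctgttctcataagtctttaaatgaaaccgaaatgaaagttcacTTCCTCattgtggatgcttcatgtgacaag

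The libraries held between 17253823 and 23450232 estimated reads. On the second principal component of log2(CPM + 1), with 7.25% of the variance, CTRL+beta-Glucan replicates 1 and 2 lay at 34.8 and 18.4, while the other 3 libraries of that group lay between -20.2 and 4.0. On the same component WSD+beta-Glucan replicate 1 lay at 2.5, against -15.3 to -6.3 for the others of its group. The titles of these 3 libraries carry the numbers 37, 39 and 40, the lowest of the series. Picked by these numbers and called below the 3 libraries that stood apart, they were left out in a further fit of the fold changes. They were not the only ones away from their group. WSD replicate 1 lay at 13.1, against -2.7 to 3.0 for the others of its group, and CTRL replicate 5 at -14.1, against -4.8 to 6.0. Both were kept in that fit, and each was left out in a fit of its own.

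Levels of different genes are compared here by TPM (transcript abundance divided by length and scaled within a library) within a group. In every group the cathepsin Ctsl, a cysteine endopeptidase, was the most abundant member, with means of 738 TPM in WSD+beta-Glucan, 770 TPM in WSD, 612 TPM in CTRL+beta-Glucan and 615 TPM in CTRL. Lamp1, a glycoprotein that coats the lysosomal membrane, and Psap, the precursor of the saposins that present lipids to hydrolases, were among the 5 highest in each group. The other end of the order was also shared: Atp6v0d2 ranked 35 and Ctsk ranked 36 in every group. Between these ends some ranks moved. Ctss stood at rank 12 in WSD+beta-Glucan and 11 in WSD, against 29 in CTRL+beta-Glucan and 29 in CTRL. Cd68 stood at rank 24 in WSD+beta-Glucan and 16 in WSD, against 34 in both control-diet groups, and Lgmn at rank 15 and 12, against 22 and 22. TPM values of all genes were shifted between diets (a median ratio of 1.36 for WSD over CTRL, where CPM gave 0.971), so one gene is compared between groups only by CPM (counts scaled to the library's size after TMM).

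What WSD did to these genes without beta-glucan was asked by comparing WSD with CTRL. In WSD livers 19 of the 36 members were higher (52.8%), against 26.0% of all 13594 genes tested, and 8 were lower (22.2%), against 27.1% of all genes, by edgeR's quasi-likelihood test at a Benjamini-Hochberg adjusted p under 0.05. The median log2 fold change of the members was 0.25, and that of all genes tested was -0.04. By group of members, all 4 macrophage-type genes were higher with a median log2 fold change of 3.38, the 4 macrophage-rich genes split into 2 higher, 1 lower and 1 not called, and the 28 ubiquitous genes into 13 higher, 7 lower and 8 not called with a median of 0.18.

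The 4 highest log2 fold changes were those of the macrophage-type genes, between 2.87 and 3.56, followed by Lgmn at 1.87. Those of the 28 ubiquitous members lay between -0.95 and 1.16. With upper-quartile scaling, which moved the median of all genes by 0.10 on the log2 scale, 20 members were higher and 6 lower, against 30.2% and 19.3% of all genes tested. The share of higher genes among all calls was then 61.0% in place of 48.9%.

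**Figure D1:**
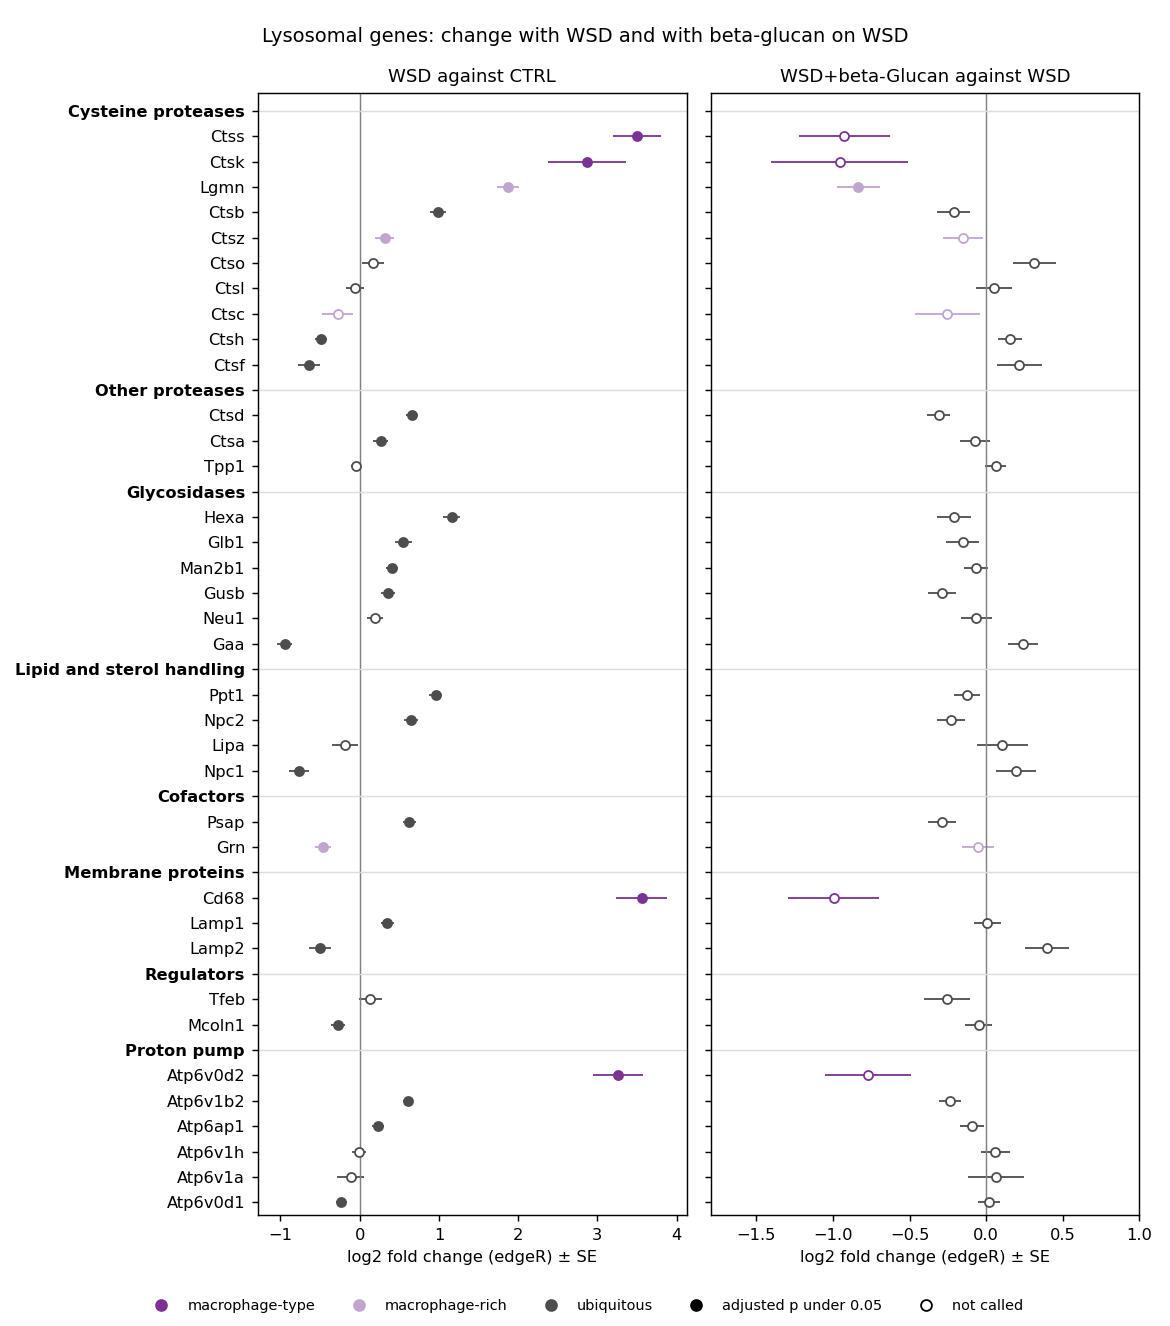
Log2 fold changes with their SE (x axis) of the 36 genes, ordered by role (y axis), for WSD against CTRL (left) and WSD+beta-Glucan against WSD (right). Filled points passed an adjusted p under 0.05, and colours give the macrophage-type, macrophage-rich and ubiquitous members; on the left the macrophage-type genes lie between 2.87 and 3.56, and on the right Lgmn is the single filled point.

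Among the cysteine proteases, the 2 macrophage-type members rose most in WSD livers. Ctss, cathepsin S, which trims the invariant chain in antigen-presenting cells, had 59.7, 63.0, 70.2 and 61.9 CPM in WSD+beta-Glucan and 122, 137, 109, 116 and 122 CPM in WSD, against 19.6, 15.6, 10.8, 9.60 and 5.74 CPM in CTRL+beta-Glucan and 16.9, 12.8, 10.6, 4.02 and 9.17 CPM in CTRL. The groups on WSD lay above all control-diet libraries, and the WSD+beta-Glucan libraries lay below all WSD libraries. Its log2 fold change was 3.50 ± 0.31 (SE) in WSD against CTRL (adjusted p = 8.55e-08, edgeR), a fold of 11.3. Ctsk, cathepsin K, the collagen-degrading protease known from osteoclasts, had 0.823, 2.21, 2.86 and 0.590 CPM in WSD+beta-Glucan and 4.33, 2.48, 2.55, 2.33 and 4.15 CPM in WSD, against 0.216, 0.807, 0.661, 0.371 and 0.148 CPM in CTRL+beta-Glucan and 0.281, 0.792, 0.641, 0.355 and 0.103 CPM in CTRL. WSD libraries were above all CTRL libraries, and WSD+beta-Glucan spread across the gap between them. These levels rest on few reads, 366 over the WSD libraries and 37 over the CTRL libraries, and its log2 fold change was 2.87 ± 0.49 (adjusted p = 7.11e-05, edgeR).

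Lgmn, legumain, an asparaginyl endopeptidase that matures other cathepsins, had 81.3, 80.7, 86.1 and 85.6 CPM in WSD+beta-Glucan and 132, 162, 152, 141 and 158 CPM in WSD, against 55.0, 47.2, 41.5, 38.0 and 29.3 CPM in CTRL+beta-Glucan and 49.996, 40.1, 43.7, 30.6 and 39.1 CPM in CTRL. WSD stood highest without overlap, WSD+beta-Glucan lay between WSD and the control-diet groups, and the control-diet groups overlapped. Its log2 fold change was 1.87 ± 0.14 in WSD against CTRL (adjusted p = 2.65e-09, edgeR).

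The other cysteine proteases moved less and in both directions. Ctsb, cathepsin B, an abundant hepatic protease, rose to 956 ± 58.8 CPM in WSD, against 483 ± 44.1 CPM in CTRL (SD, n = 5 each), a log2 fold change of 0.98 ± 0.10. Ctsz, cathepsin Z, a carboxypeptidase, rose by 0.32 ± 0.12, a call lost without WSD replicate 1, CTRL replicate 2 or CTRL replicate 5 (adjusted p = 0.114, 0.0723 and 0.0844, edgeR). Ctsh, cathepsin H, an aminopeptidase, fell by 0.48 on the log2 scale, with 172 ± 6.46 CPM in WSD and 240.4 ± 14.2 CPM in CTRL. Ctsf, cathepsin F, had 19.7, 23.4, 28.9 and 33.2 CPM in WSD+beta-Glucan and 23.3, 21.3, 23.3, 24.4 and 21.02 CPM in WSD, against 27.2, 31.3, 37.6, 34.5 and 37.6 CPM in CTRL+beta-Glucan and 33.7, 25.3, 39.9, 43.4 and 34.6 CPM in CTRL. It was lower in every WSD library than in any CTRL library, with a log2 fold change of -0.64 ± 0.14 (adjusted p = 0.000698, edgeR). Ctsl (-0.06 ± 0.11), Ctso (0.17 ± 0.13) and Ctsc, cathepsin C or dipeptidyl peptidase I (-0.28 ± 0.20), were not called.

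Of the 3 proteases of other classes, Ctsd and Ctsa rose. Ctsd, the aspartic protease cathepsin D, had 505, 483, 546 and 541 CPM in WSD+beta-Glucan and 637, 686, 638, 624 and 635 CPM in WSD, against 417, 384, 392, 356 and 362 CPM in CTRL+beta-Glucan and 413, 392, 422, 420.3 and 390.2 CPM in CTRL. WSD was highest and WSD+beta-Glucan intermediate, neither overlapping with another group, and the log2 fold change was 0.66 ± 0.07 in WSD against CTRL (adjusted p = 2.83e-07, edgeR). Ctsa, cathepsin A, the carboxypeptidase that shields the neuraminidase Neu1, was at 220.3 ± 15.8 CPM in WSD and 183 ± 14.1 CPM in CTRL, with overlapping libraries and a log2 fold change of 0.26 ± 0.09; its call was lost without WSD replicate 1 (adjusted p = 0.0543, edgeR) or CTRL replicate 5 (adjusted p = 0.0544). Tpp1, a tripeptidyl peptidase, was not called (-0.04 ± 0.06). Exon bases shared with Gm49369 on the same strand make up 34.4% of Ctsd. Salmon listed Gm49369 at 0 CPM in all WSD and CTRL libraries, and how reads of the shared bases were assigned was not tested.

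Among the glycosidases, 4 of 6 rose and Gaa fell. Hexa, the alpha subunit of hexosaminidase A, which degrades gangliosides, was at 113 ± 13.4 CPM in WSD and 50.4 ± 4.07 CPM in CTRL, the largest change of a ubiquitous member (log2 fold change 1.16 ± 0.10, adjusted p = 3.39e-08, edgeR). Glb1, beta-galactosidase (0.55 ± 0.11), Man2b1, lysosomal alpha-mannosidase (0.41 ± 0.07), and Gusb, beta-glucuronidase (0.35 ± 0.09), also rose, and Neu1 was not called (0.19 ± 0.10). Gaa, acid alpha-glucosidase, which breaks down glycogen in lysosomes, had 104, 103, 123 and 145 CPM in WSD+beta-Glucan and 99.5, 99.5, 107, 104 and 92.8 CPM in WSD, against 182, 174, 199, 192 and 202 CPM in CTRL+beta-Glucan and 209, 168, 219.6, 188 and 185 CPM in CTRL. Both WSD groups lay below both control-diet groups, and the log2 fold change of -0.95 ± 0.10 in WSD against CTRL was the lowest of the 36 (adjusted p = 1.32e-07, edgeR).

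The lipid and sterol genes were divided. Ppt1, palmitoyl-protein thioesterase, rose to 32.6 ± 1.07 CPM in WSD, against 16.8 ± 1.31 CPM in CTRL (log2 fold change 0.96 ± 0.08), and Npc2, the soluble carrier that hands cholesterol on inside lysosomes, to 100.02 ± 5.94 CPM in WSD, against 63.9 ± 8.14 CPM in CTRL (0.65 ± 0.09). Npc1, the membrane protein that receives cholesterol from NPC2, had 100.1, 89.2, 97.4 and 118 CPM in WSD+beta-Glucan and 74.7, 85.2, 91.0, 104 and 86.9 CPM in WSD, against 108, 142, 144, 161 and 176 CPM in CTRL+beta-Glucan and 155, 129.6, 146, 132 and 185 CPM in CTRL. The WSD libraries lay below the CTRL libraries, with a log2 fold change of -0.76 ± 0.13 (adjusted p = 4.36e-05, edgeR), so both partners of the same sterol export step changed in opposite directions. Lipa, lysosomal acid lipase, which hydrolyses cholesteryl esters and triglycerides, was not called (-0.18 ± 0.16).

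The cofactors and membrane proteins also moved both ways. Psap was at 1046 ± 35.3 CPM in WSD and 678 ± 56.0 CPM in CTRL (0.63 ± 0.08). Grn, progranulin, which is cleaved to granulins in lysosomes, fell to 366 ± 24.95 CPM in WSD, against 506 ± 33.3 CPM in CTRL (-0.47 ± 0.10), and so, although rich in macrophages, did not follow the macrophage-type members. Cd68, a heavily glycosylated lysosomal membrane protein used as a macrophage marker, had 30.5, 24.0, 24.3 and 19.4 CPM in WSD+beta-Glucan and 40.9, 48.0, 47.9, 45.6 and 61.6 CPM in WSD, against 9.02, 6.58, 4.68, 3.15 and 1.58 CPM in CTRL+beta-Glucan and 5.74, 5.67, 3.21, 2.66 and 3.45 CPM in CTRL. Its 4 groups were ordered like those of Ctss, without overlap between WSD+beta-Glucan, WSD and the control-diet groups, and its log2 fold change of 3.56 ± 0.32 in WSD against CTRL was the highest of the 36 (adjusted p = 1.11e-07, edgeR).

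Lamp1 and Lamp2, the main glycoproteins of the lysosomal membrane, moved apart. Lamp1 was at 718 ± 23.1 CPM in WSD and 564 ± 21.3 CPM in CTRL (0.35 ± 0.08). Lamp2 had 327, 324, 284 and 379 CPM in WSD+beta-Glucan and 197, 265, 258, 293 and 235 CPM in WSD, against 298, 325, 267, 359.6 and 440.5 CPM in CTRL+beta-Glucan and 363, 389, 305, 295 and 418 CPM in CTRL. WSD lay just below CTRL, with the highest WSD library at 293 CPM and the lowest CTRL library at 295 CPM, and the log2 fold change was -0.50 ± 0.14 (adjusted p = 0.00413, edgeR).

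Of the regulators, Tfeb, the transcription factor of lysosomal genes, had 8.45, 6.795, 8.57 and 8.04 CPM in WSD+beta-Glucan and 11.3, 9.41, 8.78, 7.60 and 10.4 CPM in WSD, against 10.5, 8.13, 8.29, 8.16 and 8.51 CPM in CTRL+beta-Glucan and 7.14, 7.25, 11.1, 10.5 and 7.31 CPM in CTRL. All groups overlapped, and the log2 fold change of 0.14 ± 0.14 was not called (adjusted p = 0.434, edgeR). Mcoln1, the lysosomal calcium channel mucolipin 1, was at 30.8 ± 1.14 CPM in WSD and 37.3 ± 3.16 CPM in CTRL (-0.27 ± 0.08, adjusted p = 0.0101, edgeR), a call lost with upper-quartile scaling (-0.17) and with offsets for effective length (-0.13).

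The proton pump held both the macrophage-type paralog that rose and the ubiquitous one that did not. Atp6v0d2, the d subunit of the V0 sector found in osteoclasts and macrophages, had 4.06, 3.40, 4.15 and 5.47 CPM in WSD+beta-Glucan and 5.44, 8.34, 5.84, 9.75 and 7.07 CPM in WSD, against 0.794, 2.92, 0.841, 0.974 and 2.37 CPM in CTRL+beta-Glucan and 0.675, 0.853, 0.875, 0.7097 and 0.670 CPM in CTRL. WSD lay above CTRL without overlap, and CTRL+beta-Glucan replicates 2 and 5 lay above the rest of the control-diet libraries. The log2 fold change was 3.26 ± 0.31 in WSD against CTRL (adjusted p = 7.85e-08, edgeR), from 843 reads over the WSD libraries and 66 over the CTRL libraries.

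Atp6v0d1, the ubiquitous d subunit, had 70.5, 67.6, 73.7 and 75.8 CPM in WSD+beta-Glucan and 76.0, 69.7, 68.3, 72.3 and 68.7 CPM in WSD, against 87.4, 80.3, 82.3, 68.8 and 76.6 CPM in CTRL+beta-Glucan and 83.5, 80.0, 83.3, 88.5 and 82.2 CPM in CTRL. It was lower in every WSD library than in any CTRL library, a small log2 fold change of -0.23 ± 0.07 (adjusted p = 0.00628, edgeR) whose call was lost with upper-quartile scaling (-0.13). The share of Atp6v0d2 in the summed TPM of both paralogs does not depend on scaling between libraries. It was 3.72% to 5.66% in WSD+beta-Glucan and 5.53% to 9.50% in WSD, against 0.764% to 2.97% in CTRL+beta-Glucan and 0.628% to 0.948% in CTRL, so the ubiquitous paralog made up most of this subunit's RNA in every library.

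Of the remaining pump members, Atp6v1b2, a subunit of the ATP-hydrolysing V1 sector, rose to 69.7 ± 2.87 CPM in WSD, against 45.6 ± 3.14 CPM in CTRL (0.61 ± 0.07), and the accessory subunit Atp6ap1 rose by 0.23 ± 0.07 with overlapping libraries. The V1 subunits Atp6v1a (-0.12 ± 0.17) and Atp6v1h (-0.01 ± 0.09) were not called.

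**Figure D2:**
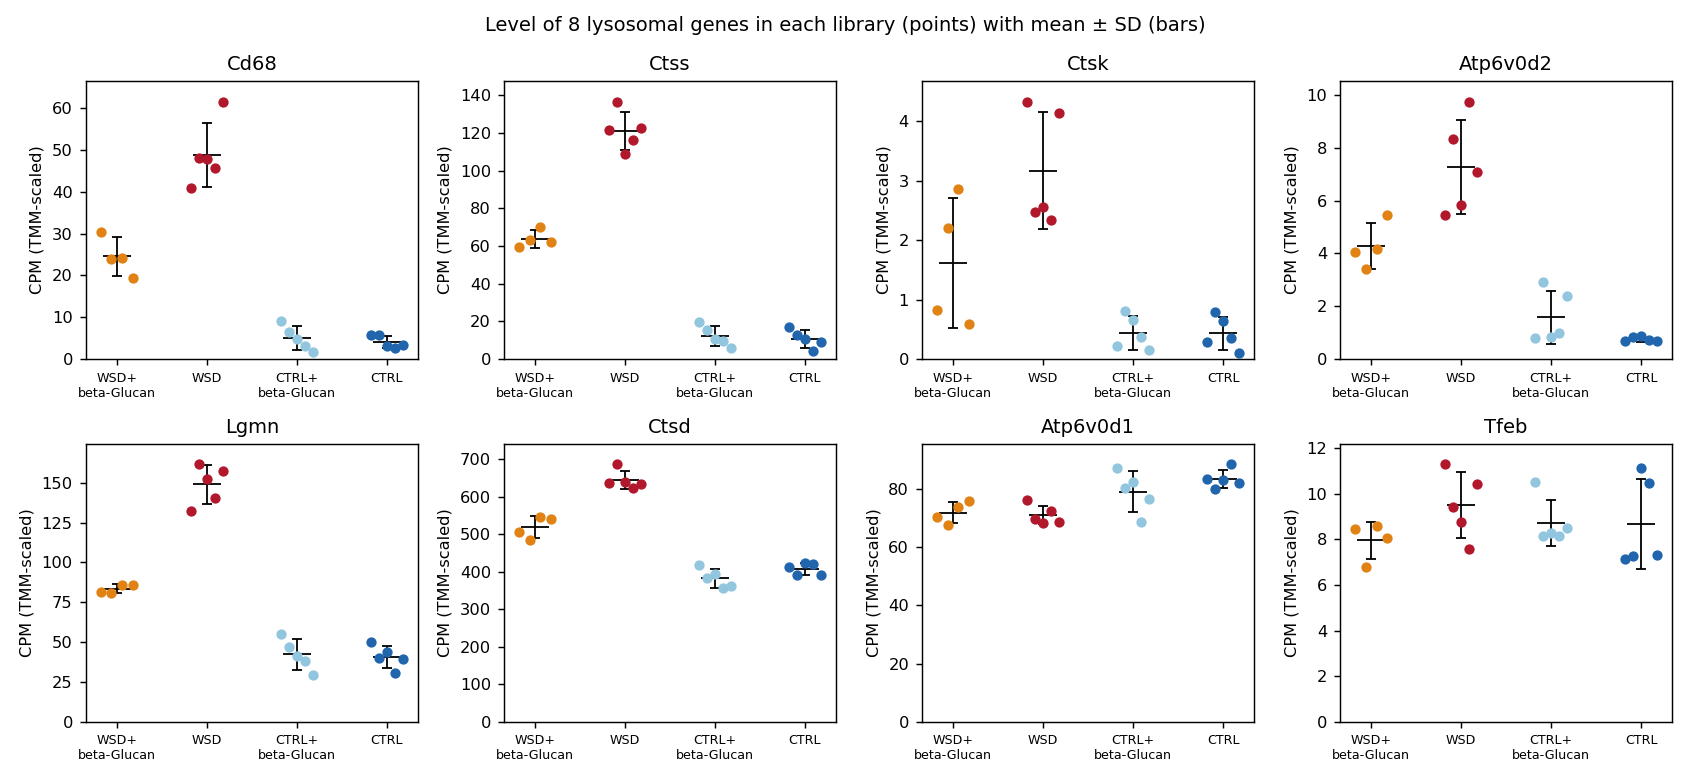
CPM (y axes, from 0) of 8 genes in each library of the 4 groups (x axes), with the mean and SD of each group as bars. Cd68, Ctss, Lgmn and Ctsd are highest in WSD and intermediate in WSD+beta-Glucan, Atp6v0d2 reaches 9.75 CPM in WSD, and the groups of Tfeb, between 6.795 and 11.3 CPM, overlap.

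Members with CACGTG in their promoter window moved both ways in WSD against CTRL. Of these 11, 5 were higher, 4 lower and 2 not called, with a median log2 fold change of -0.06, while of the 19 members with a window and no CACGTG 11 were higher, 2 lower and 6 not called, with a median of 0.32. Of all genes tested 26.0% were higher and 27.1% lower, and the difference between members with and without the motif was not tested. The 5 members whose TCACGTGA stretches are shown split likewise: Ctsd (0.66) and Ctsa (0.26) were higher, Mcoln1 (-0.27) and Atp6v0d1 (-0.23) lower, and Atp6v1a (-0.12) was not called. The windows of Cd68 and Ctss, without CACGTG, belong to the members with the highest changes.

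Macrophage markers moved with the macrophage-type members. Their 20 genes were all higher in WSD than in CTRL (median log2 fold change 2.83), with Itgax (5.35 ± 0.29) and Ccr2 (3.89 ± 0.24) at the smallest p, and none of the 20 was at 0 in every library of a group. Their summed level was 655 to 767 CPM in WSD+beta-Glucan and 1149 to 1352 CPM in WSD, against 81.1 to 303 CPM in CTRL+beta-Glucan and 83.0 to 254 CPM in CTRL. Relative to this sum, Cd68 stood at 3.48 ± 0.54% in WSD+beta-Glucan (SD, n = 4) and 3.96 ± 0.38% in WSD (SD, n = 5), against 2.40 ± 0.42% in CTRL+beta-Glucan and 2.56 ± 0.57% in CTRL (SD, n = 5 each). Ctss stood at 9.08 ± 0.61% and 9.88 ± 0.90% in WSD+beta-Glucan and WSD, against 6.31 ± 0.64% and 6.19 ± 0.81% in CTRL+beta-Glucan and CTRL. Both shares were higher in WSD than in CTRL, with no overlap of WSD and CTRL libraries in the share of either gene. The other macrophage-type members did not share this. Ctsk stood at 0.227 ± 0.146% and 0.258 ± 0.081% in WSD+beta-Glucan and WSD, against 0.230 ± 0.106% and 0.283 ± 0.177% in CTRL+beta-Glucan and CTRL. Atp6v0d2 stood at 0.612 ± 0.151% and 0.593 ± 0.141% in WSD+beta-Glucan and WSD, against 1.085 ± 1.09% and 0.511 ± 0.214% in CTRL+beta-Glucan and CTRL. For both genes WSD and CTRL libraries overlapped. The share of Lgmn was lower in WSD, at 11.9 ± 0.90% and 12.1 ± 0.76% in WSD+beta-Glucan and WSD, against 23.8 ± 7.47% and 26.2 ± 6.68% in CTRL+beta-Glucan and CTRL. In bulk tissue, more cells of a type and more RNA per cell cannot be told apart, and the part of macrophage number in these results was not tested.

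**Figure D3:**
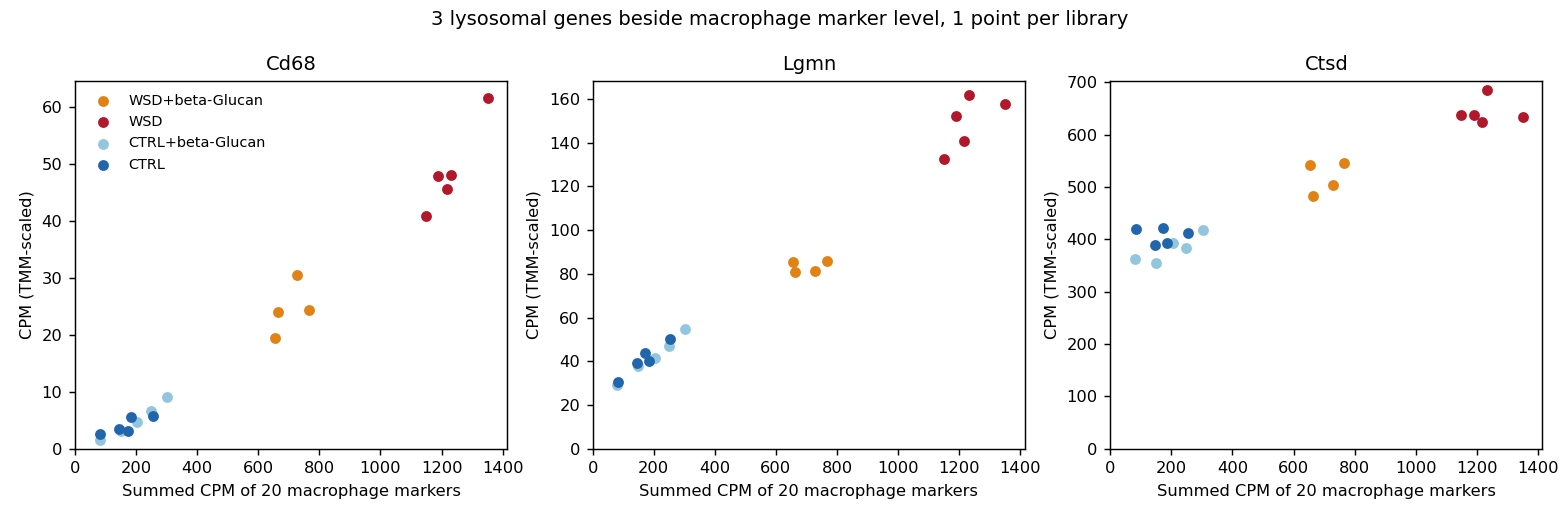
CPM of Cd68, Lgmn and Ctsd (y axes) beside the summed CPM of 20 macrophage markers (x axes), 1 point per library and coloured by group. Cd68 comes close to 0 where the markers are lowest, whereas Lgmn and Ctsd keep at least 29.3 and 356 CPM in every library.

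Other cell types also moved, where 26.0% of all genes tested were higher and 27.1% lower. Of 12 hepatocyte markers 10 were lower in WSD than in CTRL (median -0.73), led by Alb (-1.12 ± 0.14) and Serpinc1 (-0.73 ± 0.11), and their sum was 72956 to 105570 CPM in WSD+beta-Glucan and 58673 to 71703 CPM in WSD, against 126580 to 166030 CPM in CTRL+beta-Glucan and 113380 to 148650 CPM in CTRL, with no marker at 0 in every library of a group. Of 10 stellate cell markers 9 were higher (median 1.88; Col1a1 4.82 ± 0.46, Col3a1 3.94 ± 0.39), as were 8 of 9 T and NK cell markers tested (2.26; Cd8a 3.63 ± 0.51, Nkg7 2.84 ± 0.41), 6 of 9 endothelial markers (0.76; Stab2 1.17 ± 0.16, Lyve1 1.24 ± 0.28) and 3 of 6 cholangiocyte markers (1.58; Spp1, which the lipid-associated macrophage list also holds, 2.70 ± 0.51, Cftr 3.04 ± 0.98). The resident Kupffer cell markers were split: of 7, 4 were higher and 1 lower (1.53; Cd5l 3.06 ± 0.35, Folr2 2.44 ± 0.37), and 3 had negative values. Of 10 lipid-associated macrophage markers 9 were higher (3.98; Mmp12 5.99 ± 0.23, Lpl 4.01 ± 0.17). Cd79b (0.86 ± 0.31) was the single call among 5 B and plasma cell markers tested, and none was made among 4 neutrophil markers or the 1 exocrine pancreas marker tested. Their part in the results on members was not tested.

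Genes of the same compartment outside the 36 also moved both ways, as did genes in general. Of all genes tested 26.0% were higher and 27.1% lower, and whether the lists below differ from these shares was not tested. Of 29 other lysosomal hydrolases 13 were higher and 3 lower in WSD against CTRL (median 0.26), among them the phospholipase Pla2g15 (1.18 ± 0.09). Of 18 other membrane and sorting genes 6 were higher and 4 lower (0.10), led by Laptm5 (2.68 ± 0.22), a lysosomal protein of blood cells, and Scarb2 (-0.78 ± 0.08), the receptor that carries glucocerebrosidase. Of 13 other pump subunits tested 4 were higher and none lower (0.07), led by Atp6v0e (0.55 ± 0.08) and Atp6v1e1 (0.32 ± 0.08). Of 14 MiT/TFE factors and feedback genes 5 were higher and 4 lower (0.06), led by the autophagy kinase Ulk1 (-0.72 ± 0.08) and by the GTPase Rragd (3.15 ± 0.44). Both tested cystatins, inhibitors of cysteine cathepsins, rose: Cstb by 1.21 ± 0.13 and Cst3 by 0.49 ± 0.10.

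Whether beta-glucan changed these genes on the WSD diet was asked by comparing WSD+beta-Glucan with WSD. Lgmn fell, at 83.4 ± 2.78 CPM in WSD+beta-Glucan (SD, n = 4) and 149 ± 12.1 CPM in WSD (SD, n = 5), a log2 fold change of -0.84 ± 0.14 (adjusted p = 0.0214, edgeR). It was the 1 member called lower of 36 (2.78%), against 0.302% of all genes, and 0 were called higher, against 0.0883% of all genes. At an unadjusted p under 0.05 there were 13 members, against 15.6% of all genes. The call of Lgmn was lost when WSD replicate 2, WSD replicate 5 or WSD+beta-Glucan replicates 1, 2 or 4 were left out (adjusted p from 0.0664 to 0.115), while its log2 fold change stayed between -0.81 and -0.85 in those fits.

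The macrophage-type members had the other low values, none of them called. The log2 fold change was -0.99 ± 0.30 for Cd68 (adjusted p = 0.131, edgeR), -0.96 ± 0.45 for Ctsk (adjusted p = 0.306), -0.93 ± 0.30 for Ctss (adjusted p = 0.145) and -0.77 ± 0.28 for Atp6v0d2 (adjusted p = 0.197), with a median of -0.94. The 28 ubiquitous members lay between -0.31 and 0.40, with a median of -0.06, and all genes tested had a median of 0.01. Which members were called depended on the test: DESeq2 called 7 lower (Ctss, Lgmn, Ctsd, Gusb, Psap, Cd68, Atp6v1b2), limma-voom 4 (Ctss, Lgmn, Ctsd, Cd68), and edgeR on these 2 groups alone 4 (Ctss, Lgmn, Cd68, Atp6v0d2). Calls rose over all genes as well. In place of 0.302%, DESeq2 called 2.52% of them lower, limma-voom 2.69% and edgeR on these 2 groups alone 2.85%. Without CTRL+beta-Glucan replicate 5, edgeR called 3 members lower, and 1.11% of all genes.

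In 8 of the 36 members every WSD+beta-Glucan library lay below every WSD library (22.2%, against 4.83% of all genes): Ctss, Lgmn, Ctsd, Gusb, Npc2, Psap, Cd68 and Atp6v1b2. Ctsd had a log2 fold change of -0.31 ± 0.08 (adjusted p = 0.0699, edgeR), Psap of -0.29 ± 0.09 and Atp6v1b2 of -0.24 ± 0.07. Ctso, cathepsin O, was the 1 member with every library higher (2.78%, against 2.59% of all genes), with 44.0 ± 4.47 CPM in WSD+beta-Glucan and 35.4 ± 4.41 CPM in WSD. Of the members that fell in WSD against CTRL, none was called here. Lamp2 (0.40 ± 0.14), Gaa (0.24 ± 0.10), Ctsf (0.22 ± 0.15), Npc1 (0.20 ± 0.13) and Ctsh (0.15 ± 0.08) had positive values. Atp6v0d1 (0.02 ± 0.07), Grn (-0.05 ± 0.11) and Mcoln1 (-0.05 ± 0.09) stayed near 0.

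Markers of several cell types had negative values here. Of all 13594 genes tested 6466 were negative and 7127 positive, and 0.302% were called lower. Whether the lists differ from all genes was not tested. All 20 macrophage markers had a negative log2 fold change (median -0.84), of which Itgax passed the test (-1.28 ± 0.23, adjusted p = 0.0261, edgeR), and their sums in WSD+beta-Glucan and WSD did not overlap. Relative to that sum, Cd68, Ctss, Ctsk, Atp6v0d2 and Lgmn of both groups overlapped. Ctsd did not, at 69.3% to 82.7% of the sum in WSD+beta-Glucan and 46.9% to 55.7% in WSD. Of the endothelial markers 9 of 9 were negative (median -0.25), of the stellate cell markers 9 of 10 (-0.51), of the T and NK cell markers 8 of 9 (-0.28) and of the neutrophil markers 4 of 4 (-0.67), and all 12 hepatocyte markers were positive (0.23), with none of these called. Other lists were split, also without a call: 4 of 7 resident Kupffer cell markers were negative (-0.36), 3 of 6 cholangiocyte markers (-0.19) and 2 of 5 B and plasma cell markers (0.01). Their part in the results on members was not tested. Of the lipid-associated macrophage markers 5 of 10 were lower (-1.17; Mmp12 -1.56 ± 0.17, Lpl -1.23 ± 0.16), and of 29 other lysosomal hydrolases 1 was lower, Pld3 (-0.50 ± 0.10). No gene was called among the other pump subunits, the MiT/TFE genes, the membrane and sorting genes or the cystatins.

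Whether beta-glucan changed these genes on the control diet was asked by comparing CTRL+beta-Glucan with CTRL. None of the 36 members was called, against 0.00736% of all genes higher and 0% lower, and none was called by DESeq2, limma-voom or any other alternative fit. At an unadjusted p under 0.05 there was 1 member, Atp6v0d2, against 5.70% of all genes. It had a log2 fold change of 1.07 ± 0.34 (adjusted p = 0.805, edgeR), with 1.58 ± 0.994 CPM in CTRL+beta-Glucan and 0.756 ± 0.0996 CPM in CTRL (SD, n = 5 each). The values of Cd68 (0.23 ± 0.34), Ctss (0.18 ± 0.30), Lgmn (0.05 ± 0.13) and Ctsk (0.03 ± 0.58) were small, and without the 3 libraries that stood apart they became -0.42, -0.30, -0.17 and -0.16, none called. Macrophage marker sums overlapped, with the highest values of 303 and 249 CPM within CTRL+beta-Glucan in replicates 1 and 2.

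What WSD did under beta-glucan was asked by comparing WSD+beta-Glucan with CTRL+beta-Glucan. Here 15 of 36 members were higher (41.7%), against 19.1% of all genes, and 5 lower (13.9%), against 15.2% of all genes. All 4 macrophage-type members rose: Ctss by 2.39 ± 0.31, Cd68 by 2.33 ± 0.32, Ctsk by 1.89 ± 0.52 and Atp6v0d2 by 1.43 ± 0.30 on the log2 scale, for a median of 2.11. Lgmn rose by 0.99 ± 0.14, Hexa by 0.84 ± 0.11, Ppt1 by 0.75 ± 0.08 and Ctsb by 0.67 ± 0.10. The lower members were Gaa (-0.68 ± 0.10), Grn (-0.56 ± 0.11), Npc1 (-0.53 ± 0.13), Ctsh (-0.31 ± 0.08) and Mcoln1 (-0.26 ± 0.09), whose call was lost in several alternative fits, among them the one without the 3 libraries that stood apart (-0.12, adjusted p = 0.365, edgeR). With upper-quartile scaling 16 members were higher and 4 lower, against 21.5% and 10.7% of all genes tested. The share of higher genes among all calls was then 66.8% in place of 55.7%. Cell type markers moved here as well: 19 of 20 macrophage markers were higher (median 1.95), as were 8 of 10 stellate cell markers (1.48), 7 of 10 lipid-associated macrophage markers (2.78), 6 of 9 T and NK cell markers (1.15) and 5 of 6 cholangiocyte markers (2.33, the other 1 lower), while 7 of 12 hepatocyte markers were lower (-0.52). Fewer moved in other lists: 3 of 7 resident Kupffer cell markers (0.92) and 2 of 9 endothelial markers (0.33) were higher. Of 4 neutrophil markers 1 was lower (-0.52), and no B and plasma cell marker was called. The part of cell types in the results was not tested. The libraries of both groups did not overlap for 14 higher members (38.9%, against 14.4% of all genes) and 3 lower ones (8.33%, against 10.7%). Ctso passed the test here (0.59 ± 0.14) and not in WSD against CTRL (0.17 ± 0.13).

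Both WSD comparisons, which share no library, called 19 members in the same direction (52.8%, against 29.2% of all genes tested). A further 8 members were called in WSD against CTRL and not under beta-glucan: Ctsf, Ctsz, Ctsa, Glb1, Gusb, Lamp2, Atp6v0d1 and Atp6ap1. Among all genes such loss was also frequent: of 7208 called in WSD against CTRL, 3963 were called in both in the same direction. Of the members it was 19 of 27, and whether members differ from other genes in this was not tested. The difference between the effects was tested by itself, as the beta-glucan effect on WSD minus that on CTRL. None of the 36 members passed that test, against 0% of all genes higher and 0.00736% lower, and 11 had an unadjusted p under 0.05, against 13.7% of all genes. The largest in size were those of Atp6v0d2 (-1.84 ± 0.44, adjusted p = 0.180, edgeR) and Cd68 (-1.23 ± 0.45, adjusted p = 0.278), and that of Lgmn was -0.88 ± 0.19 (adjusted p = 0.128). For Atp6v0d2 the beta-glucan effects were -0.77 on WSD and 1.07 on CTRL, neither called. The effect on CTRL rests on 66 reads over the CTRL libraries and on CTRL+beta-Glucan values from 0.794 to 2.92 CPM. DESeq2 called Atp6v0d2 and Lgmn lower, and edgeR called Lgmn without CTRL+beta-Glucan replicate 5. In these fits 0.920% and 0.523% of all genes were called lower. Of the 27 members called in WSD against CTRL, 25 had a smaller absolute log2 fold change under beta-glucan (92.6%, the exceptions being Grn and Lamp1), as had 86.7% of all 7208 genes called there, and both sets were picked for passing in WSD against CTRL.

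**Figure D4:**
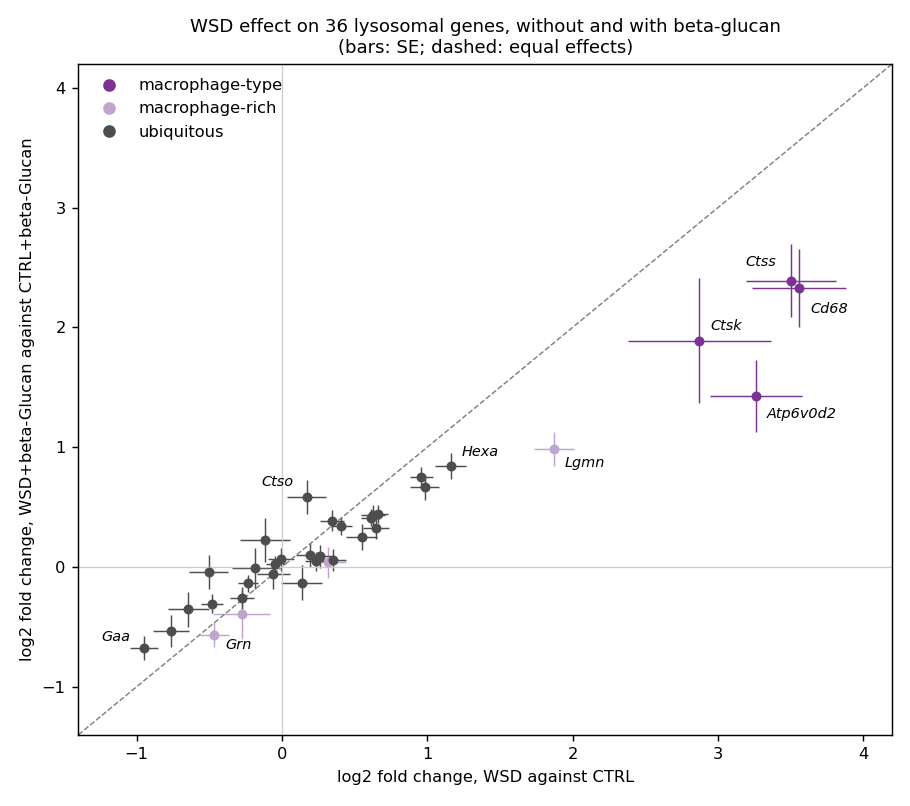
Log2 fold change of WSD+beta-Glucan against CTRL+beta-Glucan (y axis) beside that of WSD against CTRL (x axis) for the 36 genes, with SE bars and the line of equal effects. The macrophage-type genes and Lgmn lie right of 1.8 on the x axis and below the line, while Ctso (0.17 on the x axis, 0.59 on the y axis) lies above it.

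The share of the macrophage-type genes in the summed TPM of the 36 members gave the same order without scaling between libraries. It was 2.04% to 2.58% in WSD+beta-Glucan and 3.93% to 4.70% in WSD, against 0.248% to 0.820% in CTRL+beta-Glucan and 0.214% to 0.683% in CTRL. The ranges of the WSD groups did not overlap with each other or with those of the control-diet groups. Most of this share came from Ctss and Cd68, with means of 156 and 66.6 TPM in WSD. Atp6v0d2 and Ctsk had means of 5.59 and 3.18 TPM in WSD.

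**Figure D5:**
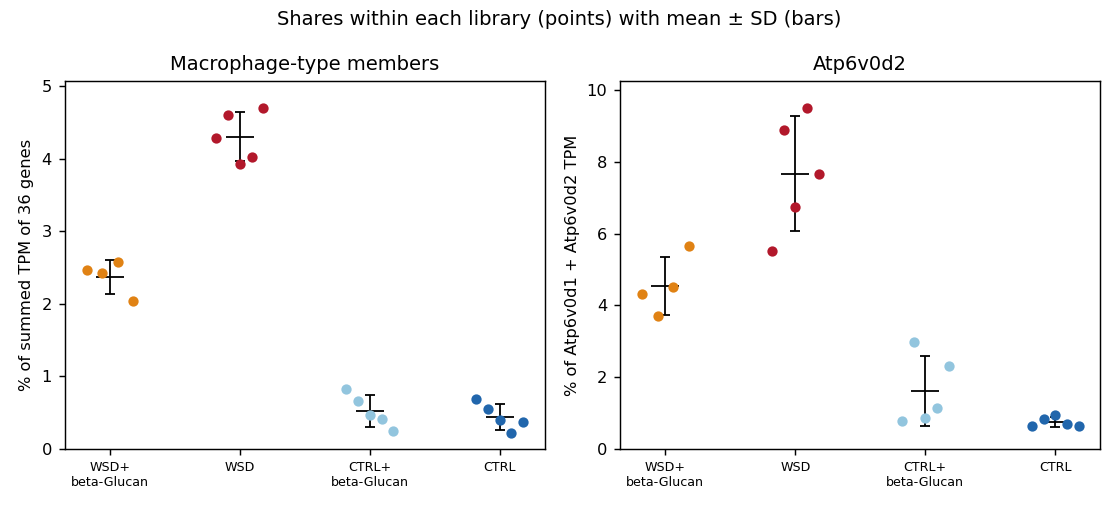
Percent of the summed TPM of the 36 members taken by the 4 macrophage-type genes (left) and percent of the summed TPM of Atp6v0d1 and Atp6v0d2 taken by Atp6v0d2 (right), for each library with group mean and SD. WSD reaches 4.70% on the left and 9.50% on the right, and CTRL stays at or below 0.683% and 0.948%.

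Transcript use was tested for Lamp2, Psap, Tfeb, Ctsb and Ctsl, where a transcript took between 5% and 95% of its gene's reads, by exact permutation tests of 40 shares (two-sided). None passed the Benjamini-Hochberg adjustment over these 40. A single share at the smallest p that these group sizes allow could not have passed it, so transcript use cannot be called unchanged. In WSD against CTRL the transcript Psap-205 took 4.66 ± 0.55% of the Psap reads in WSD and 8.25 ± 0.85% in CTRL (SD, n = 5 each), without overlap (exact p = 0.00794, the smallest that 5 against 5 libraries allow; adjusted p = 0.159). Ctsl-201 took 93.1 ± 1.54% of the Ctsl reads in WSD and 89.5 ± 2.36% in CTRL (exact p = 0.00794, adjusted p = 0.159). Lamp2-201 and Lamp2-202, which together took nearly all Lamp2 reads, were at 66.2 ± 2.53% and 32.5 ± 2.50% in WSD, against 63.3 ± 4.73% and 34.9 ± 5.03% in CTRL. Salmon divides reads between transcripts by estimation, so shares of similar transcripts carry an error that these values do not show.

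Some members share exon bases with other genes in the annotation, 12 of the 36. For 10 of these a partner lies on the opposite strand, and for 3 on the same strand. Whether strand was used in quantification is not given in the sources used here. Fdft1, which shares 12.8% of the exon bases of Ctsb, was at 4.40 CPM in WSD and 25.6 CPM in CTRL, far below Ctsb, and fell while Ctsb rose. The antisense gene Gm47123 covers 26.8% of the exon bases of Ctsl, and the processed pseudogene Gm49230 on the same strand covers 6.09%. Reads of Ctsl could thus be divided with either of them.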

How the data were processed

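Bulk liver RNA of 19 libraries was measured by RNA sequencing after PureLink extraction and TruSeq stranded mRNA library preparation, per the labels' protocols. The deposited files hold, per transcript, estimated counts, TPM and effective lengths, and were made with Salmon 1.10.1 on GRCm39, per the submitters' processing notes, which also name DESeq2 1.38.3 without its role. Transcript set, index options and strand setting are not given in the sources used here. The TPM values were taken as the authors deposited them. The effective lengths, as deposited, served for offsets alone.

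The deposited estimated counts were summed per gene through GENCODE M21, which held 115977 of 116546 transcripts (99.5%); the other 569 took 0.0623% to 0.110% of the reads. Sums were rounded and filtered with filterByExpr, leaving 13594 of 35498 genes. They were tested with edgeR 4.0.16 (quasi-likelihood F test, TMM, all 19 libraries in a single fit of 4 groups, Benjamini-Hochberg over all genes, threshold 0.05; R 4.3.3). SE is the absolute log2 fold change divided by the square root of F. Median depth was 19481377 reads, and no pair of libraries held identical values. Alternatives were DESeq2 1.42.0, limma-voom (limma 3.58.1), RLE and upper-quartile scaling, no low-count filter, effective-length offsets, the compared groups alone, 3 libraries left out, and each library left out.

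Members, their division into macrophage-type, macrophage-rich and ubiquitous, and all marker lists were chosen with earlier results of these data known. All 36 members are accounted for; values in every library are given for the macrophage-type members, those with the 4 highest and 4 lowest log2 fold changes in WSD against CTRL, any called in WSD+beta-Glucan against WSD, and Tfeb, Ctsd and Atp6v0d1. In lists, the named genes are those of smallest p, except for 1 gene that is not reported here.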

Additional observations from a re-analysis of the deposited data

Results flagged for a closer look

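In 7 of 144 groups of libraries (36 members in 4 groups) the highest or lowest library stood far from the rest by Dixon's test; chance alone flags about 5% of groups. Within WSD+beta-Glucan, Ctso was at 50.62 CPM in replicate 4, against 41.15 to 42.59 CPM in the others, and Grn was at 311.1 CPM in replicate 1, against 361.0 to 370.9 CPM. Within WSD, Ctsz was at 470.2 CPM in replicate 1, against 337.3 to 365.1 CPM in the others, which is 1 of 3 libraries without which its call in WSD against CTRL is lost, and Ctsd was at 686.0 CPM in replicate 2, against 623.8 to 637.7 CPM. Within CTRL+beta-Glucan, replicate 5 was high for Gusb, at 37.93 CPM against 32.19 to 33.84 CPM, and for Atp6v1b2, at 50.05 CPM against 41.68 to 44.08 CPM. Tfeb was at 10.53 CPM in CTRL+beta-Glucan replicate 1, 1 of the 3 libraries that stood apart, against 8.13 to 8.506 CPM in the others.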

How the results depend on the processing

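In WSD against CTRL 17 to 20 members were higher and 8 lower when single libraries were left out. In those fits 23.6% to 26.5% of all genes tested were higher and 24.2% to 27.9% lower. In WSD+beta-Glucan against WSD the count of lower members was 1, and became 7 with DESeq2, 4 with limma-voom, 4 with the compared groups alone, 2 with upper-quartile scaling and 0 to 3 with single libraries left out. Of all genes tested 0.302% were lower in the fit reported. That share was 2.52% with DESeq2, 2.69% with limma-voom, 2.85% with the compared groups alone and 0.324% with upper-quartile scaling. With single libraries left out that share was 0.0145% to 1.11%. In WSD+beta-Glucan against CTRL+beta-Glucan 5 were lower, 3 without the 3 libraries that stood apart, and 4 to 6 with single libraries left out. Of all genes 15.2% were lower in the fit reported and 8.99% without the 3 libraries. That share was 11.2% to 15.4% with single libraries left out. For the difference of the beta-glucan effects the count of lower members was 0, against 2 with DESeq2 and 0 to 1 with single libraries left out. Of all genes 0.00736% were lower in the fit reported, 0.920% with DESeq2 and 0% to 0.523% with single libraries left out. The cause was not tested. Values were followed for all 36 members in the 2 comparisons of diets and in the one of beta-glucan on WSD, and for Lgmn and the 4 macrophage-type members alone in CTRL+beta-Glucan against CTRL and in the difference. Of these, 62 changed sign, none of them called in the fit reported.

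In WSD against CTRL these were, on the log2 scale, with upper-quartile scaling, Ctsl 0.042, Tpp1 0.059 and Atp6v1h 0.094, and for Atp6v1h also 0.028 with DESeq2, 0.028 with RLE scaling, 0.0016 with limma-voom, 0.0034 with no filter, 0.026 with the compared groups alone and -0.068 to 0.051 with single libraries left out. In WSD+beta-Glucan against WSD, Lamp1 was -0.021 with DESeq2, -0.021 with RLE scaling, -0.0041 with the compared groups alone and -0.024 with upper-quartile scaling, and Atp6v0d1 -0.0085, -0.0088 and -0.012 with DESeq2, RLE and upper-quartile scaling. Without the 3 libraries Grn was 0.0035. With single libraries left out Grn lay between -0.091 and 0.0035, Lamp1 between -0.018 and 0.042, Atp6v0d1 between -0.0082 and 0.047 and Atp6v1a between -0.058 and 0.18. In CTRL+beta-Glucan against CTRL, without the 3 libraries, Ctsk was -0.16, Ctss -0.30, Cd68 -0.42 and Lgmn -0.17, and with single libraries left out they lay between -0.29 and 0.35, -0.043 and 0.41, -0.078 and 0.47, and -0.063 and 0.16. In WSD+beta-Glucan against CTRL+beta-Glucan, Lipa was 0.026 with limma-voom, 0.0023 with the compared groups alone and 0.050 with upper-quartile scaling, Lamp2 0.021 and Ctsl 0.0019 with upper-quartile scaling, and Ctsl 0.14 without the 3 libraries. With single libraries left out the ranges were -0.12 to 0.0050 for Ctsl, -0.025 to 0.12 for Ctsz, -0.0085 to 0.057 for Tpp1, -0.020 to 0.14 for Gusb, -0.11 to 0.13 for Lipa and -0.12 to 0.072 for Lamp2.

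With macrophage-type and macrophage-rich members joined, their median was 2.37 in place of 3.38 in WSD against CTRL, and -0.80 in place of -0.94 in WSD+beta-Glucan against WSD. No paired analysis was possible because the labels name no animals and WSD+beta-Glucan and WSD share a single number in their titles (S2), the other groups none. Depth limits Ctsk and Atp6v0d2, which had 37 and 66 reads over the CTRL libraries.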
